A study of Mus musculus with 15 samples.

Results

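Crym, the gene whose reporter was used to collect these cells, was followed together with 7 genes that receive, activate, inactivate or report thyroid hormone. The other 7 were Thra, Thrb, Rxra, Dio1, Dio2, Dio3 and Klf9. The 8 members were chosen by name from 19938 genes on the array that had a probe set with 1 symbol, and each was measured by 1 such probe set. The kidney cells came from CD-1 mice that carry the transgene Tg(Crym-EGFP)82Gsat, in which Crym sequence on a bacterial artificial chromosome drives green fluorescent protein. Pups were raised by CD-1 foster mothers, received no treatment that the labels name, and were of unknown sex. The ages sampled were, postnatal days P0, P1, P2, P3 and P4, with 3 pools of about 4 kidneys for each of these 5 days, dissociated with trypsin and sorted by fluorescence. The 12 pools of P0 to P3 carry the label cap mesenchyme and the 3 pools of P4 the label renal vesicle, while the design text names cap mesenchyme for all 5 days.

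Thyroid hormone enters cells through membrane transporters and is bound in the cytosol by mu-crystallin, the product of Crym, which needs NADPH to bind it and is also a ketimine reductase. Deiodinases then make the active hormone triiodothyronine from thyroxine or break both down, and receptors that pair with retinoid X receptors act on target genes. In the kidney, the cap mesenchyme holds the nephron progenitors, which become epithelial as renal vesicles, and the adult proximal tubule is a known site of type 1 deiodinase.

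Values are log2 signals as deposited, and a level on one probe set cannot be set against that on another. A gene was tested if it lay above 6.86, the median of all values, on at least 3 arrays, which held for 11885 genes. Crym, Thra, Rxra and Klf9 passed this minimum. Thrb, Dio1, Dio2 and Dio3 were above the median on 0 of 15 arrays. Tests were those of limma over all 11885 genes with Benjamini-Hochberg adjustment, and a gene was called at an adjusted p under 0.05. Along the first principal component (35.3% of the variance), replicate 1 of every day was separated from replicates 2 and 3, with interquartile ranges of 2.14 to 2.27 against 2.52 to 2.77. Results are therefore also given within these 2 array sets. Compartment and age changed together at P4 and cannot be told apart. In pools of sorted cells, fewer cells with a transcript and less of it per cell cannot be told apart either. The labels do not say whether pools were from different litters, and p-values measure only the spread between these samples.

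Crym fell at P4, and its fall began within the cap mesenchyme days. At P0 its log2 values were 11.70, 11.87 and 12.15 in replicates 1, 2 and 3. They were 11.36, 11.79 and 11.56 at P1 and 11.21, 11.82 and 11.66 at P2. The pools of these first 3 days overlapped. At P3 the values were 10.55, 10.51 and 10.24, and at P4 they were 7.98, 7.68 and 7.75. All 3 pools of P3 lay below all pools of P0 to P2, and all 3 pools of P4 lay below all 12 cap mesenchyme pools.

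**Figure D1:**
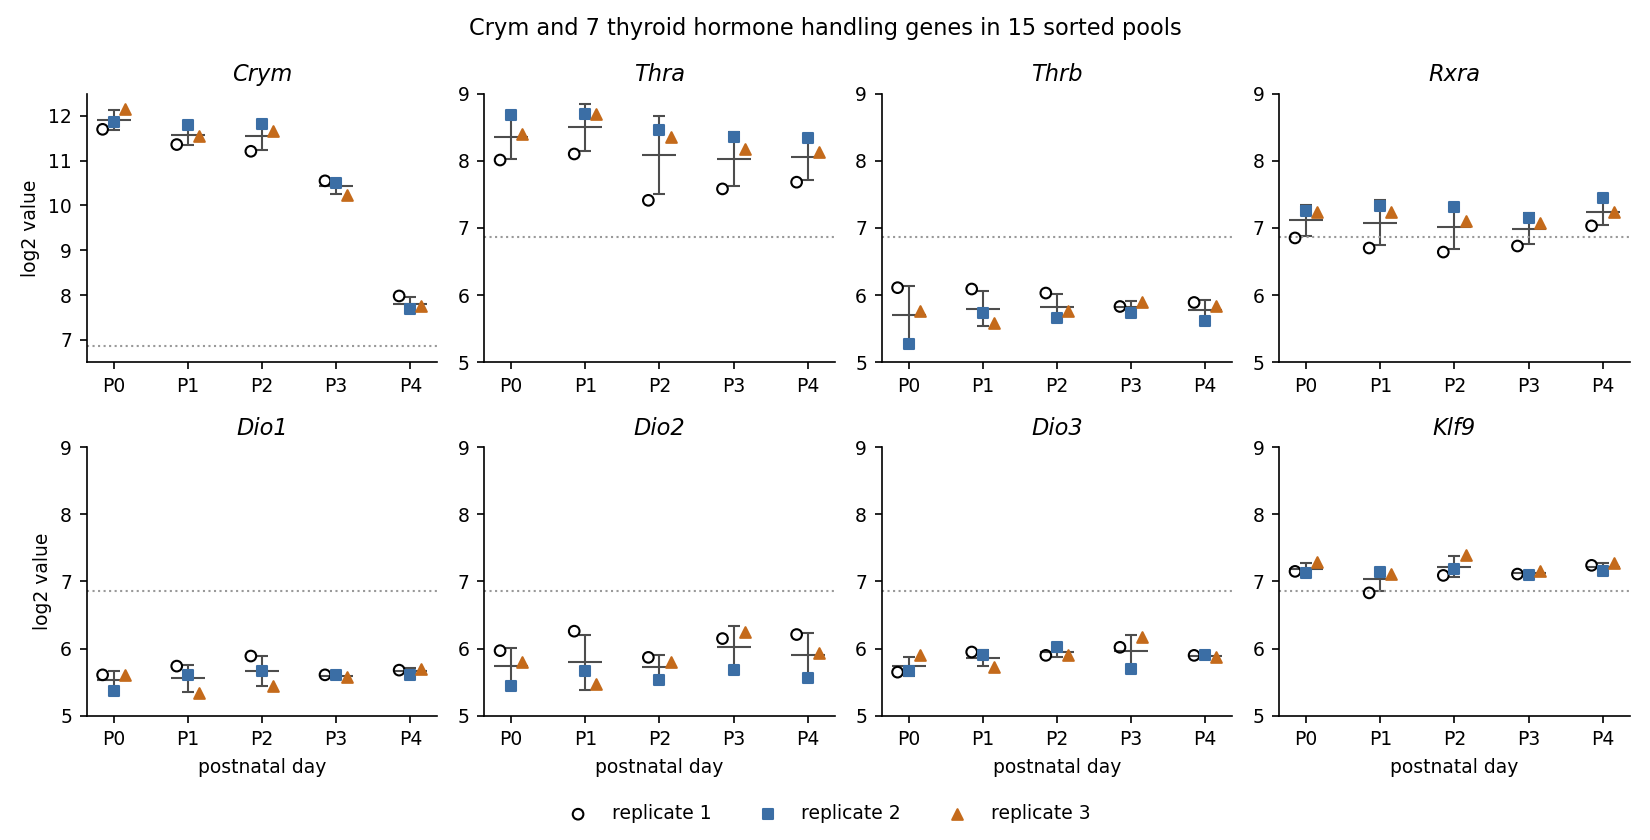
Log2 value of each member (vertical axis) by postnatal day (horizontal axis), with 1 point for each of 15 pools, the shape and colour giving the replicate. Horizontal bars are day means, error bars SD (n = 3) and the dotted line is the median of all values (6.86). The Crym panel has its own vertical axis and the other 7 panels share one. Crym steps down at P3 and P4, the first replicates (open circles) of Thra and Rxra lie lowest on each day, and Thrb and the 3 deiodinases stay below the dotted line.

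The mean level of Crym was 11.91 ± 0.23 (SD, n = 3) at P0, 11.57 ± 0.22 at P1, 11.56 ± 0.32 at P2, 10.43 ± 0.17 at P3 and 7.80 ± 0.16 at P4. Between neighbouring days, the change from P0 to P1 was -0.33 on the log2 scale (95% interval -0.71 to 0.045, limma adjusted p = 1), and from P1 to P2 it was -0.0075 (-0.39 to 0.37, adjusted p = 1). Neither step passed the test, and the intervals leave room for falls of up to 0.71 and 0.39. From P2 to P3 Crym fell 2.19-fold (log2 -1.13, SE 0.18, adjusted p = 0.0214), a step at which 0.143% of all genes tested were called. This call depended on single libraries: the adjusted p was 0.0920 without P2 replicate 2, 0.169 without P2 replicate 3, 0.128 without P3 replicate 2 and 0.118 without P3 replicate 3. From P3 to P4 it fell 6.19-fold (log2 -2.63, SE 0.18, adjusted p = 5.8e-06), where 1.49% of all genes were called.

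Against the mean of the 4 cap mesenchyme days, Crym at P4 was lower by 11.8-fold (log2 -3.57, SE 0.14, 95% interval -3.87 to -3.27, adjusted p = 3.9e-09). In this comparison 5.73% of all genes tested were called, and 2.32% were called as lower. Of the 4 members tested, Crym alone was called, and it had the second largest fall (rank 2 of 11885) and the smallest p (rank 1). The difference was -3.22 within the first replicates and -3.74 within replicates 2 and 3. Over P0 to P3, while the label stayed the same, Crym fell by 0.44 on the log2 scale per day (SE 0.056, adjusted p = 6.5e-04), rank 36 of 11885 among falling slopes. Here 3.13% of all genes were called and 1.48% were called as falling. The test for any difference among the 5 days called 5.37% of genes and, of the members, Crym alone (adjusted p = 6.5e-08).

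Because the sort gate acts on a reporter with Crym sequence, the Crym level is not independent of the way the cells were collected. The sources used here do not give the gate, and its part in the fall was not tested. At P4 Crym still lay above the median of all values in all 3 pools. Markers of the labelled compartments moved with Crym. Of 11 cap mesenchyme markers measured, 7 were called lower at P4 and 4 falling over P0 to P3. The P4 call of Osr1 was lost without any 1 of 8 samples (limma adjusted p up to 0.1965). The falling calls of Cited1, Meox1 and Gdnf were each lost without some single samples (adjusted p up to 0.0966, 0.0731 and 0.1004), and that of Six2 held. The mean level of the 11 markers per pool was 9.36 to 10.31 on the cap mesenchyme days and 8.49 to 8.72 at P4. Six2, which keeps progenitors undifferentiated, was still at 8.11, 8.68 and 8.52 in the P4 pools, against 9.49 to 11.17 before. Of 12 renal vesicle markers, 10 were called higher at P4 and 8 rising over P0 to P3. Mean levels were 7.29 to 9.32 and then 9.07 to 9.71, so that the ranges overlapped. The P4 calls of Wnt4 and Ccnd1 were lost without any 1 of 11 and of 6 samples (limma adjusted p up to 0.3223 and 0.2456). The rising call of Emx2 was lost without any 1 of 3 samples (adjusted p up to 0.0580). All 7 endothelial markers lay below the median of all values on all arrays. Of 8 ureteric bud and collecting duct markers, 5 passed the minimum. Called higher at P4 were 2, Gata3 (1.88) and Krt8 (0.67, limma adjusted p = 0.0110). Gata3 passed the minimum only through its 3 P4 pools, with at most 6.41 in the cap mesenchyme pools. Its P4 difference is therefore a description and no p is given. The mean level of the 8 markers was 6.63 to 7.11 before and 7.16 to 7.36 at P4. The Krt8 call was lost without P4 replicate 2 (adjusted p = 0.0930). That of Gata3 held with each cap mesenchyme pool left out. With a P4 pool left out, Gata3 fell below the minimum level and was not tested. Of 5 podocyte markers 2 passed the minimum, and of these Podxl was called higher (0.61, limma adjusted p = 0.0170). Its call was lost without P4 replicate 2 or P4 replicate 3 (adjusted p up to 0.138). The mean levels of the 5 markers were 6.37 to 6.76 and then 6.83 to 6.89. Of 7 macrophage markers 2 were above the minimum and 0 were called, although with the replicate number as a block, as explained for Thra, Cd68 was called in the slope (-0.27 per day, adjusted p = 2.0e-04, 0.0518 without it). Of 8 stromal markers 2 were lower at P4 and 3 falling over P0 to P3. The falling call of Pdgfra was lost without P0 replicate 1 (limma adjusted p = 0.0519). That of Dcn was lost without any 1 of 5 samples (adjusted p up to 0.1279). The stromal mean level was 7.23 to 7.96 and then 7.40 to 7.55. With that block 6 cap mesenchyme and 4 stromal markers were called as falling over P0 to P3, and 10 renal vesicle markers and 1 of the cap mesenchyme (Pax2) as rising. The blocked fit called 8.49% of all genes tested in the slope, against 3.13% without the block. The part of these shifts in the Crym result was not tested.

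The genes whose pattern over the 15 arrays was most like that of Crym were taken by Pearson correlation among the genes tested, as a description. Meox1, a homeobox gene of the cap mesenchyme, had r = 0.979, Spock2, a secreted proteoglycan, 0.978 and Snap91, a clathrin adaptor, 0.972. Six2 followed with 0.972 and Eya1, a transcriptional coactivator needed for kidney formation, with 0.969. Itga8, the integrin alpha 8 subunit, had 0.968, Clmp, a cell adhesion molecule, 0.966 and Meis2, a homeobox gene, 0.965. The arrays share preparation and day, so that a common course over the days by itself gives a high r. In replicates 2 and 3 alone (n = 10) the values for these 8 genes were 0.968 to 0.991.

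These 8 genes were chosen on the same arrays, over which the P4 level of Crym weighs most, so their own P4 values are a description and no test of them is given. Beside -3.57 for Crym, the P4 difference was -2.77 in Meox1, -2.15 in Six2, -2.26 in Itga8, -2.05 in Eya1, -2.0 in Snap91, -1.76 in Clmp, -1.74 in Spock2 and -1.38 in Meis2. Over P0 to P3 their slopes ran from -0.40 per day in Six2 to -0.17 in Itga8, beside -0.44 for Crym. The genes most opposite to Crym were Pantr1, a noncoding RNA (r = -0.969), Tfap2a, a transcription factor of epithelia (-0.963), Prss23, a serine protease (-0.959), and Dsp, the desmosome protein desmoplakin (-0.958). Their P4 differences, likewise fixed by the choice, were 2.69, 2.26, 1.82 and 1.18 on the log2 scale.

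**Figure D2:**
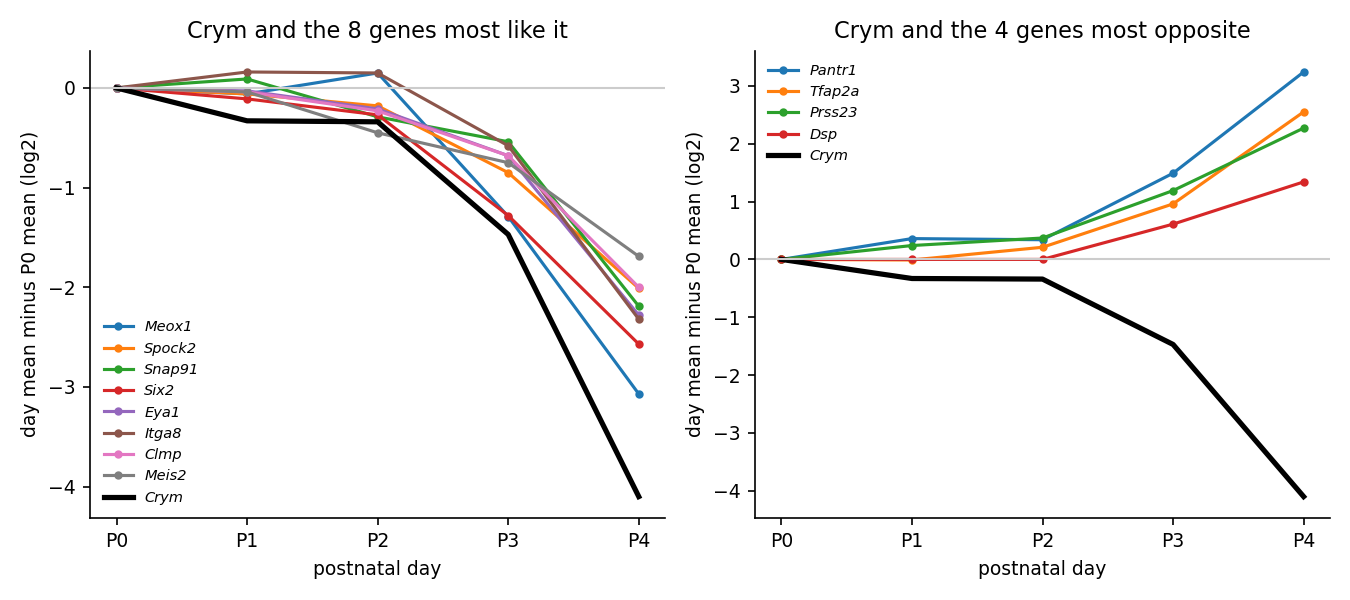
Day means minus the P0 mean on the log2 scale (vertical axis) by postnatal day (horizontal axis), for Crym (black) with the 8 genes most like it over 15 arrays (left) and the 4 most opposite (right). Each point is a mean of 3 pools and no error is drawn. Crym reaches -0.34 at P2, -1.47 at P3 and -4.10 at P4.

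Thra encodes thyroid hormone receptor alpha, and it also gives a splice form that does not bind the hormone. Which forms the probe set reads was not examined. In replicates 1, 2 and 3 its log2 values were 8.01, 8.68 and 8.40 at P0, 8.10, 8.70 and 8.70 at P1 and 7.41, 8.45 and 8.36 at P2. They were 7.58, 8.35 and 8.17 at P3 and 7.68, 8.34 and 8.13 at P4. All 15 arrays lay above the median of all values. The P4 pools lay inside the range of the cap mesenchyme pools, and the first replicate was the lowest on each of the 5 days, by 0.67 on average.

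The day means of Thra were ordered P1 (8.50 ± 0.35), P0 (8.36 ± 0.33), P2 (8.08 ± 0.58), P4 (8.05 ± 0.34) and P3 (8.03 ± 0.40, SD, n = 3), and no pair of neighbouring days passed the test. At P4 Thra differed from the cap mesenchyme mean by -0.19 (95% interval -0.69 to 0.31, limma adjusted p = 0.881), by -0.09 within the first replicates and by -0.24 within replicates 2 and 3. The interval leaves room for a fall of up to 0.69. With the replicate number as a block it was -0.38 to -0.004 (limma adjusted p = 0.200). Over P0 to P3 the slope was -0.14 per day (SE 0.093, 95% interval -0.34 to 0.059, adjusted p = 0.660).

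Within P0 to P3, same-numbered pools deviated together from their day means in 18 of 18 pairs. Different-numbered pools were not compared, so this check cannot tell pairing by number from the split between the array sets. With the replicate number as a block, the slope of Thra kept its size and passed the test (-0.14 per day, SE 0.035, 95% interval -0.22 to -0.066, adjusted p = 0.0206). This fit called 8.49% of all genes. Blocking on the array set instead, the adjusted p was 0.0325, and within replicates 2 and 3 alone the slope was -0.11 per day (adjusted p = 0.268). With the block, the largest step lay between P1 and P2 (-0.42, adjusted p = 0.107) and did not pass. The blocked slope of Crym was called as well (-0.44 per day, adjusted p = 7.8e-05), and those of Rxra (-0.043, adjusted p = 0.463) and Klf9 (-0.0023, adjusted p = 0.979) were not.

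The 3 genes whose pattern was most like that of Thra were Tcf25 (r = 0.957, n = 15), Rara, the retinoic acid receptor alpha (0.953), and Rsu1 (0.952). After the mean of each array set was subtracted these were 0.863, 0.848 and 0.850. Like Thra, all 3 were lower in the first replicates, and none was called in either comparison.

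Thrb encodes thyroid hormone receptor beta, the receptor form that prevails in adult liver and in the pituitary. Its values lay between 5.27 and 6.11 and never reached the median of all values. By day, replicates 1, 2 and 3 read 6.11, 5.27 and 5.76 at P0, 6.09, 5.74 and 5.58 at P1, and 6.03, 5.66 and 5.76 at P2. They read 5.83, 5.73 and 5.90 at P3 and 5.89, 5.62 and 5.83 at P4. The P4 pools lay inside the range of the other days. The lowest and the highest values of the whole course were both from P0, and the first replicate was the highest on 4 of 5 days, by 0.30 on average, the reverse of Thra. In a fit without the minimum level, over 19938 genes, P4 differed from the cap mesenchyme mean by -0.0051 (95% interval -0.33 to 0.32, limma adjusted p = 0.999).

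Rxra, the retinoid X receptor alpha with which thyroid hormone receptors pair, stayed near the median. In replicates 1, 2 and 3 its log2 values were 6.85, 7.25 and 7.23 at P0, 6.70, 7.32 and 7.23 at P1 and 6.64, 7.31 and 7.10 at P2. They were 6.73, 7.15 and 7.08 at P3 and 7.03, 7.44 and 7.23 at P4. The first replicate was again the lowest on all 5 days, by 0.44 on average, and 11 of 15 arrays lay above the median of all values. One P4 pool, replicate 2, exceeded all cap mesenchyme pools, and the others lay inside their range.

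The mean of Rxra was highest at P4 (7.24 ± 0.20), followed by P0 (7.11 ± 0.23), P1 (7.08 ± 0.34), P2 (7.02 ± 0.34) and P3 (6.99 ± 0.23, SD, n = 3). No step between consecutive days passed the test. That from P3 to P4 was 0.25 (95% interval -0.20 to 0.69, limma adjusted p = 0.999), more than the SD of either day, and it was positive in all 3 same-numbered pairs. With the replicate block its interval was 0.04 to 0.45 (adjusted p = 0.231). The P4 difference was 0.19 (95% interval -0.16 to 0.54, limma adjusted p = 0.776), 0.31 within the first replicates and 0.13 within replicates 2 and 3. With the replicate block the interval of this difference was 0.023 to 0.35 (limma adjusted p = 0.144). The slope over P0 to P3 was -0.043 per day (-0.18 to 0.097, adjusted p = 0.913). The genes most like Rxra were Arrdc1 (r = 0.960, n = 15), Mydgf (0.957) and Mcrs1 (0.955), and after the array set means were subtracted the values were 0.894, 0.856 and 0.788.

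Among the tested members, Thra and Rxra had the highest correlation over the 15 arrays (r = 0.79), which was 0.32 in replicates 2 and 3 alone (n = 10). Crym and Thra had r = 0.33, and 0.65 in replicates 2 and 3. Points that share an array set and a day enter both values, and the relations are given as descriptions.

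**Figure D3:**
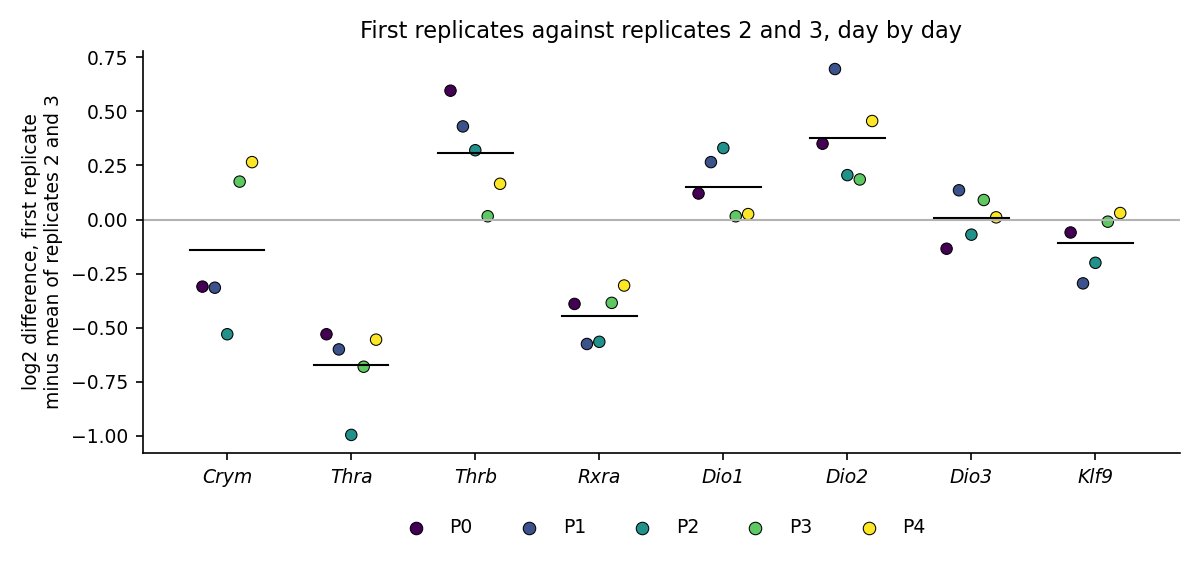
Log2 difference between the first replicate and the mean of replicates 2 and 3 (vertical axis) for each member (horizontal axis), with 1 point per day, coloured by day, and a bar at the mean of 5 days. Thra (-1.0 to -0.53) and Rxra (-0.58 to -0.30) lie below 0 on all days, Dio2 (0.19 to 0.69) and Thrb (0.0068 to 0.60) above it, and Crym lies below 0 at P0 to P2 and above it at P3 and P4.

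The 3 deiodinases are selenoenzymes and none of them lay above the median of all values on any array. Dio1, the type 1 enzyme, which removes iodine from either ring of the hormone, ranged from 5.34 to 5.89. Its P0 values were 5.61, 5.37 and 5.61 in replicates 1, 2 and 3, and its P4 values were 5.68, 5.61 and 5.70. P1 to P3 covered 5.34 to 5.89, so that the days overlapped throughout. Of 9 markers of the proximal tubule, where Dio1 is known from the adult kidney, 5 passed the minimum, and 2 of these (Lrp2 and Slc22a6) were called higher at P4. The Slc22a6 call was lost without any 1 of the 3 P4 pools (limma adjusted p up to 0.208). Hnf4a lay above the median of all values on 15 arrays and Lrp2 on 13, and Cubn, Miox and Fut9 on none. The mean level of all 9 markers per pool was 6.33 to 6.68 before P4 and 6.68 to 6.77 at P4.

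Dio2, the type 2 enzyme that makes triiodothyronine from thyroxine, ranged from 5.44 to 6.26. At P0 replicates 1, 2 and 3 gave 5.97, 5.44 and 5.80, and at P4 they gave 6.21, 5.57 and 5.94. P3 had the highest mean of the 5 days (6.03), from values of 6.15, 5.68 and 6.25. The 5 days overlapped, and the first replicate was the highest on 4 of them, by 0.38 on average. Dio3, the type 3 enzyme that inactivates both hormones, ranged from 5.65 to 6.17, with 5.65, 5.67 and 5.90 at P0 and 5.90, 5.90 and 5.88 at P4. Its first replicates did not differ on average from the others (0.00).

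In the fit without the minimum level, the P4 difference was 0.074 for Dio1 (95% interval -0.15 to 0.30), 0.086 for Dio2 (-0.30 to 0.47) and 0.017 for Dio3 (-0.20 to 0.24), each with a limma adjusted p of 0.999. The slope over P0 to P3 was 0.032 per day for Dio1 (adjusted p = 0.994), 0.080 for Dio2 (adjusted p = 0.959) and 0.076 for Dio3 (-0.012 to 0.16, adjusted p = 0.687). No change was detected in them within these intervals. How far background signal lowers folds at these levels was not tested.

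Klf9, a zinc finger transcription factor that thyroid hormone induces in brain and other tissues and that glucocorticoids induce as well, varied least of the 4 tested members. Its log2 values in replicates 1, 2 and 3 were 7.15, 7.13 and 7.29 at P0, 6.83, 7.14 and 7.11 at P1 and 7.09, 7.18 and 7.40 at P2. They were 7.11, 7.09 and 7.15 at P3 and 7.24, 7.15 and 7.27 at P4. The whole range was 0.57, against 4.47 for Crym, and the P4 pools lay inside the cap mesenchyme range. Only P1 replicate 1 lay below the median of all values.

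The day means of Klf9 were 7.22 ± 0.16 at P2, 7.22 ± 0.06 at P4, 7.19 ± 0.09 at P0, 7.12 ± 0.03 at P3 and 7.03 ± 0.17 at P1 (SD, n = 3). No step between consecutive days passed the test, and the steps from P1 to P2 (0.20, limma adjusted p = 1) and from P3 to P4 (0.10, adjusted p = 1.0) were larger than the SDs of both days. The P4 difference was 0.082 (SE 0.094, 95% interval -0.12 to 0.28, limma adjusted p = 0.867), with 0.20 within the first replicates and 0.02 within replicates 2 and 3. The slope was -0.0023 per day (-0.083 to 0.078, adjusted p = 0.994). The gene most like Klf9 was Nlgn3 (r = 0.846, n = 15), followed by Niban3 (0.817) and Iqgap3 (0.792), and in replicates 2 and 3 these were 0.862, 0.685 and 0.518.

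**Figure D4:**
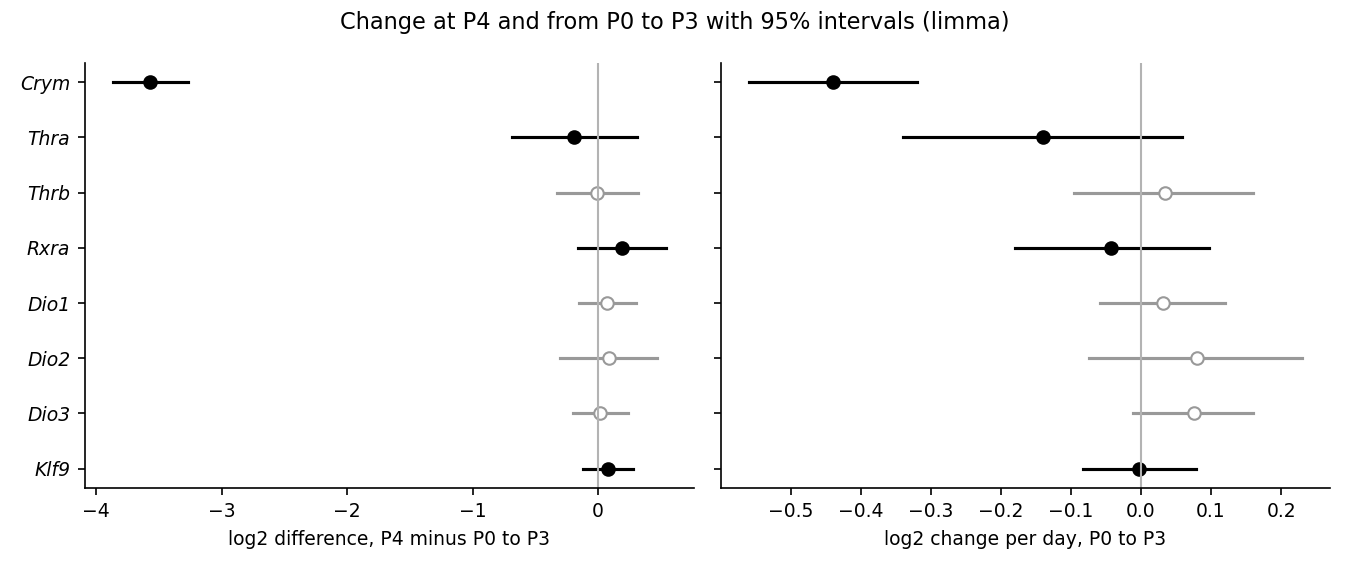
Log2 difference of P4 from the mean of P0 to P3 (left, horizontal axis) and log2 change per day over P0 to P3 (right, horizontal axis) for the 8 members, with 95% intervals from limma. Black points passed the minimum level, and open grey points are from the fit without it. Crym lies at -3.57 and -0.44, and the intervals of the other 7 members include 0 on both sides in these fits, which have no block.

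The receptors recognise a half-site with the letters AGGTCA, often as 2 copies in the same direction with a spacer of 4 bases (DR4). Both strands of the RefSeq promoter windows of assembly GRCm38.p6, which hold 250 bases before and 50 after a start site, were searched for these letters. Of 32851 windows of all genes, 16.3% held the half-site and 0.0152% (5 windows) held DR4, whose copies count as half-sites too. Windows were at hand for 6 members, 8 windows in all, and Crym and Thra had none to search. One Thrb window and one Rxra window held half-sites, and 0 of the 8 held DR4. The windows with half-sites are shown beside that of Klf9, the member read as a hormone target, each 5′ to 3′ on the gene's strand with half-sites of either strand in capitals.
Thrb, chr14:17660710-17661009, plus strand: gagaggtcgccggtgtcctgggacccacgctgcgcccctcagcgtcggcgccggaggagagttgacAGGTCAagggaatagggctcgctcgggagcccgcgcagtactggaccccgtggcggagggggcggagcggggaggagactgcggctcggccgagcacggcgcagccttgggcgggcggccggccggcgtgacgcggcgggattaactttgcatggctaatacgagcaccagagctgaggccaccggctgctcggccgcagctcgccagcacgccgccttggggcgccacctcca
Rxra, chr2:27709042-27709341, plus strand: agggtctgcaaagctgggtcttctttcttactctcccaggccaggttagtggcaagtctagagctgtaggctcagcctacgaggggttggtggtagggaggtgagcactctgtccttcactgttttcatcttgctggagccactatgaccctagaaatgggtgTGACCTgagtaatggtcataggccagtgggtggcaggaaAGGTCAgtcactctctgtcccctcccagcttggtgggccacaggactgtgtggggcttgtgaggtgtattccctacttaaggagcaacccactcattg
Klf9, chr19:23140976-23141275, plus strand: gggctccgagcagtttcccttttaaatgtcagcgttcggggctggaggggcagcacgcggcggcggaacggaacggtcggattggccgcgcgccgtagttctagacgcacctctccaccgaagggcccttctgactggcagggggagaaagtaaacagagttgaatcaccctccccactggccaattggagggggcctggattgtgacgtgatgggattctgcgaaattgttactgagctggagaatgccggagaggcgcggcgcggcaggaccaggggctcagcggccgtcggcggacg
The half-site of the Thrb window begins 184 bases before the start site. The Rxra window holds 2, on opposite strands, the first of them 87 bases before the start site. The Klf9 window holds none, which says only that these letters do not occur in it. A match is a description and not a bound site, and the array data bear on none of these windows.

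Other genes of the pathway were counted in lists by role, and 66 genes of 7 lists were on the array, 47 of them above the minimum. Of these 47, 2 were called at P4 and 1 in the slope, against 5.73% and 3.13% of all genes. Of 9 hormone transport genes measured, 2 passed the minimum, Slc7a5 and Slc3a2, the light and heavy chains of an amino acid carrier that also takes up thyroid hormone. Their P4 differences were -0.01 and 0.06 (limma adjusted p = 0.995 and 0.957). The other 7, among them Slc16a10, Slco1c1 and the plasma carriers Ttr, Serpina7 and Alb, were below the median on all 15 arrays.

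Of 12 receptor partners and coregulators, 11 passed the minimum and 0 were called in either comparison, with a median P4 difference of -0.06 (all genes 0.00). Rxrb, the second retinoid X receptor, lay between 6.89 and 7.54 (P4 difference -0.06, limma adjusted p = 0.942), and Rxrg was below the median on all arrays. With the replicate block, Ncoa3, a coactivator of nuclear receptors, was called in the slope (-0.14 per day, adjusted p = 0.0362, 0.391 without the block). Tbl1xr1, a subunit of the corepressor complex, is named after its value was seen. It read 10.61, 9.88 and 9.56 in the P4 pools and 10.16 to 10.98 in the cap mesenchyme pools, so that 2 of 3 P4 pools lay below all others. Its P4 difference of -0.55 had an adjusted p of 0.213, and of 0.00156 when the array set was a block. The first replicate of Tbl1xr1 was the highest on all 5 days.

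Of 5 genes of selenoprotein synthesis, which deiodinases need, all passed the minimum and 0 were called. Genes that respond to thyroid hormone in other tissues had 8 of 11 members above the minimum, with a median P4 difference of 0.14. Ppargc1a, a coactivator of mitochondrial genes, was the 1 called higher at P4, with 7.76, 8.19 and 8.34 in the P4 pools against 6.12 to 7.76 before. It rose by 0.89 on the log2 scale (SE 0.22, limma adjusted p = 0.0273). The call was lost without P4 replicate 2 or without P4 replicate 3 (adjusted p up to 0.201), and the difference was 0.47 in the first replicates and 1.10 in the others. A second, dimmer probe set of Ppargc1a was not used, and with both averaged the gene did not reach the minimum level.

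Me1, malic enzyme, which makes NADPH, was the 1 with a called slope. Its values were 6.77, 6.72 and 6.67 at P0, 6.99, 7.0 and 7.19 at P1, 6.85, 7.04 and 7.12 at P2 and 7.56, 7.56 and 8.05 at P3. All 3 pools of P3 lay above those of P0 to P2. The rise was 0.30 per day (SE 0.05, limma adjusted p = 0.00274) and stayed called with each pool left out (adjusted p 0.00298 to 0.0161). At P4 the values were 7.21, 7.53 and 7.25, below those of P3, and the P4 difference from the cap mesenchyme mean was 0.21 (adjusted p = 0.483). Hr, a corepressor that the hormone induces in brain, had a P4 difference of 0.16 (adjusted p = 0.765). Thrsp, Fgf21 and Ucp1 were below the median on all arrays.

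Klf9 belongs to a family with 14 other measured genes, of which 13 passed the minimum. Klf7, a regulator of neuronal differentiation, was the 1 called, with 8.59, 8.90 and 8.67 in the P4 pools, all above the cap mesenchyme range of 7.86 to 8.56. It rose by 0.53 on the log2 scale (SE 0.12, limma adjusted p = 0.0174), and the call was lost without P4 replicate 2 or P4 replicate 3 (adjusted p up to 0.150). The median P4 difference of the family was 0.14. Of 9 glucocorticoid response genes, 7 passed the minimum and 0 were called, with a median P4 difference of -0.05, and Nr3c1, the receptor itself, had 0.11 (adjusted p = 0.822). Of 6 genes of hormone synthesis in the thyroid, Slc5a5 alone passed the minimum and was not called.

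**Figure D5:**
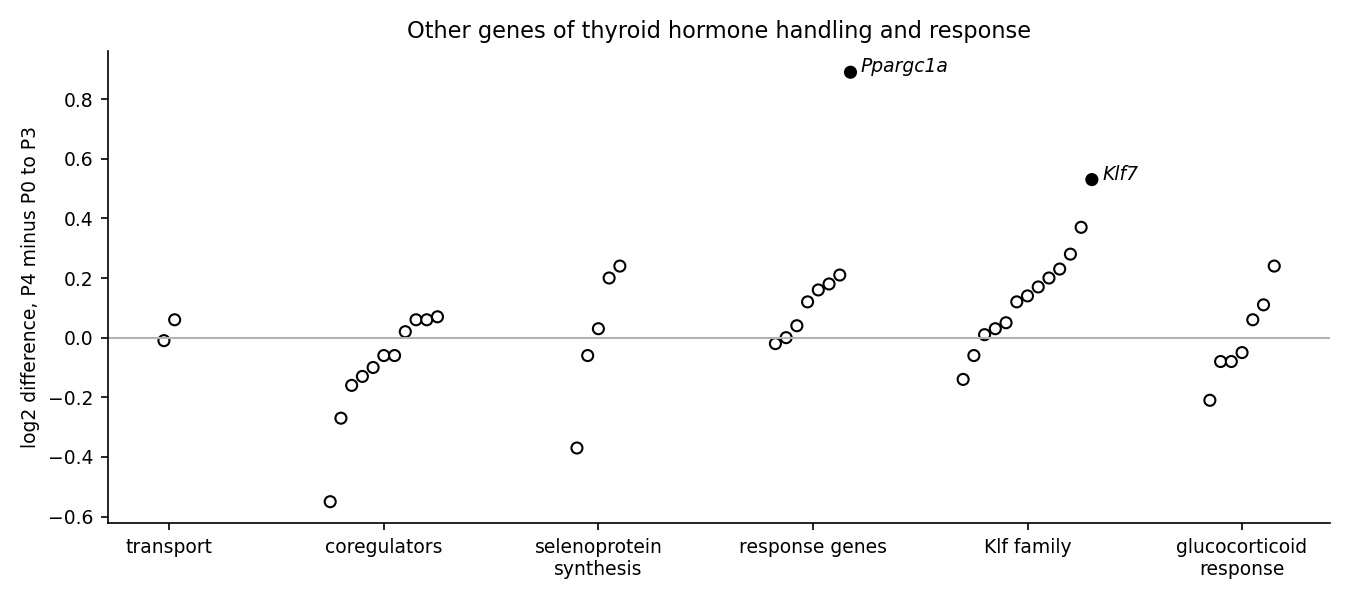
Log2 difference of P4 from the mean of P0 to P3 (vertical axis) for the genes above the minimum level in 6 lists (horizontal axis), 1 point per gene in order of size, without error bars. Filled points have a limma adjusted p under 0.05. Ppargc1a (0.89) and Klf7 (0.53) are the 2 filled points.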

How the data were processed

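Sorted cells from neonatal kidneys were profiled in 15 samples on Affymetrix arrays after 1 round of amplification. The authors deposited 1 table of log2 values for 35557 probe sets, made per the labels with Affymetrix Expression Console. The sources used here do not give its version, summarization, background correction or centring, and the values were taken without change. The number of arrays limits the precision.

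Probe sets were named through the platform annotation: 21789 had 1 symbol, 1621 had several and 12147 were not listed. A current gene was found by identifier for 21698 of the single-symbol ones. Where a gene had more than 1 probe set (999 of 19938 genes), that of highest mean stood for it. Groups came from the labelled day. A model with 5 day means was fitted to all 15 samples with limma 3.58.1 in R 4.3.3 (lmFit, contrasts.fit, eBayes) and checked on simulated data. The simulated arrays had independent noise and no split between array sets, so that check does not cover the split seen here. All tests were two-sided. Contrasts were P4 minus the average of the 4 cap mesenchyme days, the least squares slope over P0 to P3, any difference among days, and adjacent days. Intervals cover 95%. Same-numbered samples were checked by the correlation of their deviations from the day means, which exceeded 0.1 for 18 of 18 pairs within P0 to P3 (lowest 0.138) and for 29 of 30 pairs over all days (lowest 0.0782). Different-numbered samples were not compared, so the check does not separate pairing from the array sets. Replicate numbers were read from sample titles, a title without one being replicate 1. Alternatives were other filters, normalizations, blocks, array weights, an intensity trend, averaged probe sets, replicates 2 and 3 only, and each sample left out.

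The 8 members are always named. Of the pathway lists, members that passed in P4 against cap mesenchyme or the slope were named, with a few others for orientation, and by correlation the 8 genes most like and 4 most opposite to Crym and 3 for each other tested member, leaving out clone-type names. The members, lists and tests were chosen with earlier results of these data known.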

Additional observations from a re-analysis of the deposited data

How the results depend on the processing

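Of 394 alternative values for the members, 376 kept direction and side of the threshold, and the 4 that lost a call concern the P2 to P3 step of Crym, given with its libraries above. The P4 difference, the slope and the overall test of Crym kept theirs under every alternative run, with P4 differences of -3.65 to -3.50 when single samples were left out. The slope of Thra passed with the replicate block and with the array set block (-0.14 per day with each), and its overall test passed with adjusted p values of 0.0214 and 0.0344. The slope of Klf9 lay so near 0 that its sign turned, to 0.0041 with quantile normalization and 2.3e-06 with median-centred arrays, and it ran from -0.012 to 0.012 over samples left out. The P1 to P2 step of Crym turned to 0.064 in replicates 2 and 3 and ran from -0.14 to 0.17 over samples left out. Counts of called genes moved more. With the replicate block and the array set block, they went from 681 to 1435 and 1363 for P4 against cap mesenchyme, from 372 to 1009 and 918 for the slope, from 638 to 1483 and 1386 for any difference, and from 177 to 422 and 398 for P4 against P3. Array weights gave 1613 for any difference. From P2 to P3 the count was 17, with 144 and 146 under the blocks, 48 with quantile normalization, 82 in replicates 2 and 3 and 299 with array weights. From P1 to P2 it was 10, with 114 and 103 under the blocks, 16 with a stricter filter, 56 with quantile normalization, 2 with median-centred arrays, 1 in replicates 2 and 3 and 1176 with array weights. From P0 to P1 it was 0 (238 at an unadjusted p under 0.05 in limma), with 20 and 19 under the blocks, 2 with quantile normalization and 9 with array weights. Over samples left out, the counts ran from 378 to 768 (P4 against cap mesenchyme), 182 to 392 (slope), 427 to 653 (any difference), 77 to 187 (P4 against P3), 1 to 55 (P2 to P3), 0 to 23 (P1 to P2) and 0 to 2 (P0 to P1). The causes were not tested. The replicate block changed no other call of a member. In the P4 comparison, where not all same-numbered pairs had a correlation above 0.1, Tbl1xr1 and Klf10 passed with the block (adjusted p = 0.00145 and 0.0373). Low signal limits what can be said of Thrb and the deiodinases.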
